A study of Mus musculus with 17 samples.

Results

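The regions described here are stretches of the mouse genome in which an open chromatin peak was called in every cocaine library, and in no control library, of both diestrus and proestrus females. They were selected on these calls alone: overlapping peaks of 17 libraries on chromosomes 1 to 19 were merged into 277655 regions, and 289 of them were called in 6 of 6 female cocaine and 0 of 6 female control libraries, which is 0.104% of all regions. These are called gained regions below, a word that stands for the calls only. The calls in the 12 female libraries are therefore the rule and not a result, and they are given without a test. The calls in the 5 male libraries, the position and the sequence of the regions were not used to choose them. Male peaks did take part in the merging that set the borders of the regions.

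ATAC-seq, in which a transposase inserts adapters into accessible DNA, was performed on NeuN-positive (neuronal) nuclei sorted from the bilateral nucleus accumbens of C57BL/6 mice (C57BL/6J by the study's methods) aged 52 to 54 days. The groups were DIE_Control and DIE_Cocaine (diestrus females, 3 libraries each), PRO_Control and PRO_Cocaine (proestrus females, 3 each), MALE_Control (3) and MALE_Cocaine (2). Cocaine groups received 10 mg/kg cocaine i.p. 1 h before sacrifice. By the study's methods the controls received no cocaine and stood for the time before treatment, and no vehicle injection was described for them, so the drug and the injection cannot be told apart. Each library pooled tissue of 3 animals. DIE_Cocaine library 2 carried no stage label and was grouped by its title.

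The nucleus accumbens is a part of the ventral striatum that receives dopamine input and takes part in reward, and most of its neurons are GABAergic projection neurons. Cocaine blocks the reuptake of dopamine. Proestrus is a stage of high estrogen and low progesterone and diestrus one of low estrogen and high progesterone. In activated neurons, immediate early genes such as Fos and Jun are induced within the first hour, and their products bind DNA as AP-1 dimers, most often far from promoters, at the sequence TGACTCA or its complement TGAGTCA.

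The labelled cell type was checked at marker promoters. The promoters (within 1 kb of a start site) of 6 of 6 neuronal markers and of 12 of 12 markers of striatal projection neurons, Drd1, Drd2 and Ppp1r1b among them, held a peak in all 17 libraries. Of the markers of other cells, 0 of 5 for astrocytes, 2 of 7 for oligodendrocytes (Mbp and Olig1), 0 of 5 for microglia and 0 of 5 for endothelium held one in every library, while 2, 0, 2 and 4 of these held none in any library. In between were the microglial genes P2ry12 (8 libraries) and Aif1 (6), the endothelial gene Pecam1 (7) and the astrocyte gene Aqp4 (4). A gained region lay in introns of P2ry12 and Med12l (chromosome 3, 59241458 to 59242074), with 2.73 to 4.91 in the female cocaine libraries, and is named here after its values were seen. MALE_Control libraries 1 and 3 also called it, at 3.06 and 2.74. The libraries had 74532 to 155025 autosomal peaks, with the fewest in the MALE_Cocaine libraries. The lowest fold enrichment of a called peak lay between 1.97 and 2.21 in the 17 libraries, which corresponded to a pileup of 15 to 20 at the summit over a background of 6.26 to 9.55. Whether the pileup counted whole fragments or read ends is not known, as the peak-calling options were not given. A region with no peak in a library was thus not called at this depth, and may still have held fragments.

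The sequences around the summits of 6 of the strongest regions are given as examples, with regions that hold an AP-1 motif put first. Such a motif stood near the summit in 80 of the 289 regions. Each window covers the summit and 100 bp on each side of it, read from RefSeq GRCm38.p6 on the plus strand and written 5′ to 3′, and capitals mark AP-1 motifs. The first 5 are the regions with such a motif among the 12 with the highest minimum fold enrichment, and the last was chosen from those of the 12 without one, as the strongest whose sequence is shown. The windows lie at chr4:24569307-24569507 in an intron of Mms22l, chr16:47536605-47536805 between genes, with Dppa4 nearest, chr3:147175733-147175933 between genes, with Ttll7 nearest, chr13:37364493-37364693 in an intron of Ly86, chr2:19300779-19300979 in an intron of Armc3, with the start of Msrb2 nearest, and chr5:86774112-86774312 in introns of the predicted noncoding genes Gm43055 and Gm43057, with Tmprss11e the nearest protein-coding gene.
Mms22l: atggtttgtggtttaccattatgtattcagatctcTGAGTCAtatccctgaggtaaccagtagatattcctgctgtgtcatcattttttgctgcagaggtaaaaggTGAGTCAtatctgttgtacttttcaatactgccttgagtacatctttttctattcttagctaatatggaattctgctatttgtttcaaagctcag
Dppa4: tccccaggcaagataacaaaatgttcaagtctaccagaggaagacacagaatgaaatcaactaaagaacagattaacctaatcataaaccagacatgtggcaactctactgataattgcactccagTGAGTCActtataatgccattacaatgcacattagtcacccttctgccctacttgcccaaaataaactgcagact
Ttll7: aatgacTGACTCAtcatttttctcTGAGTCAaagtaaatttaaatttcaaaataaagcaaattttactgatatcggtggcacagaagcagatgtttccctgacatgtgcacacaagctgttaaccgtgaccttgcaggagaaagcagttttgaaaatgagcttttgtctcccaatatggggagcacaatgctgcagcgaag
Ly86: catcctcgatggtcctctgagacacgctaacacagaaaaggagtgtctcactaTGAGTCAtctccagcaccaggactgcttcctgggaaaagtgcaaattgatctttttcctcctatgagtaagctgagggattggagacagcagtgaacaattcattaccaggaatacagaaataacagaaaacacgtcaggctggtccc
Msrb2: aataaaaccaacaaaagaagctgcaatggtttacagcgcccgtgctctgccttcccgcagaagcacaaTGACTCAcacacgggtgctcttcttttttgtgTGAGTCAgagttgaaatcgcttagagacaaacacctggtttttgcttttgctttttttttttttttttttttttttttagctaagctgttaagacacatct
Tmprss11e: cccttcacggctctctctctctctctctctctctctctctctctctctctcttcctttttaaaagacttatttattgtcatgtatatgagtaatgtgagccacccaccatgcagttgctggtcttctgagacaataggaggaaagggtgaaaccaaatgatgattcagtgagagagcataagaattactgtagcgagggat

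In 3 of these windows, at Mms22l, Ttll7 and Msrb2, the motif occurred at 2 positions. At Msrb2 the nearer motif was centred 3 bp from the summit and at Mms22l 9 bp from it.

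**Figure D1:**
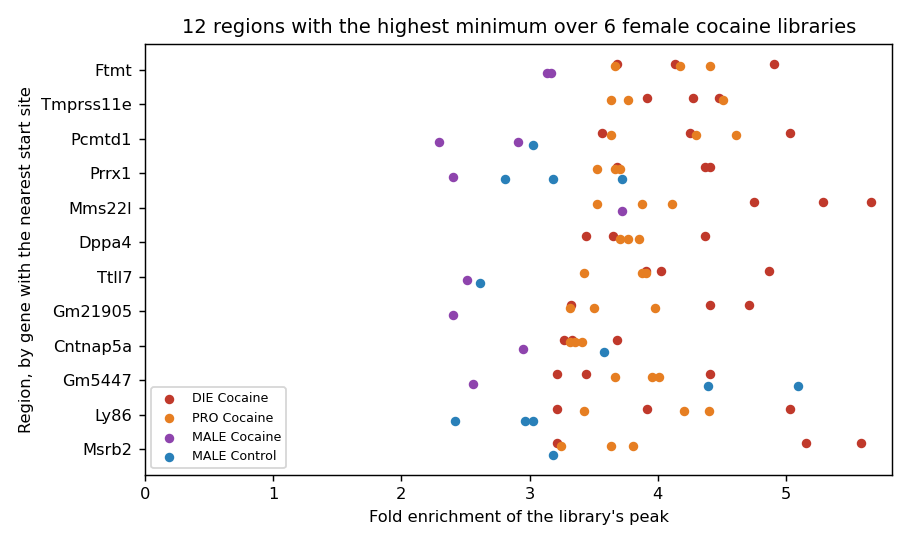
Fold enrichment of the peak of each library (x axis, ratio over the background of the library) in the 12 regions with the highest minimum over the 6 female cocaine libraries, each named by the gene with the nearest start site. Points are libraries coloured by group, and a library without a point had no peak; all female cocaine points lie at 3.22 or above, and no female control library appears.

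In each female cocaine library the gained regions had a median fold enrichment at or below that of all its autosomal peaks. Their lowest fold enrichment over the 6 female cocaine libraries had a median of 2.60 and ranged from 2.09 to 3.67, and 26 regions reached 3 in every one of these libraries. In 284 of the 289 the lowest value was above 2.19, the highest of the calling limits of the 6 female control libraries. The median over the regions was 2.97, 3.52 and 2.99 in DIE_Cocaine libraries 1, 2 and 3 and 3.10, 2.89 and 2.93 in PRO_Cocaine libraries 1, 2 and 4. DIE_Cocaine library 2 thus had the highest values, and the other 5 libraries lay close together. Over all autosomal peaks the medians were 3.21, 3.65 and 3.22 in DIE_Cocaine libraries 1, 2 and 3. They were 3.10, 3.21 and 3.04 in PRO_Cocaine libraries 1, 2 and 4. DIE_Cocaine library 2 was thus the highest there too, so its place is not particular to these regions.

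The region with the highest minimum was between genes on chromosome 18 (52163919 to 52164699), 167 kb upstream of Ftmt, the gene for mitochondrial ferritin. It had fold enrichments of 3.68, 4.91 and 4.13 in the DIE_Cocaine libraries, 4.41, 4.17 and 3.67 in the PRO_Cocaine libraries and 3.17 and 3.14 in the MALE_Cocaine libraries, and no male control library called it. All 8 cocaine libraries and none of the 9 control libraries were therefore called there. The region near Tmprss11e, a transmembrane serine protease gene, had 3.92, 4.28 and 4.48 in diestrus and 4.51, 3.64 and 3.77 in proestrus. No male library of either treatment called this region.

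The Mms22l region (chromosome 4, 24569141 to 24569576) is the one whose window is printed first above, 33.1 kb downstream of the nearest start site of a gene that acts in the repair of broken replication forks. Its values were 4.75, 5.66 and 5.28 in diestrus and 4.11, 3.53 and 3.87 in proestrus, and MALE_Cocaine library 1 called it at 3.72. The 3 diestrus values were all above the 3 proestrus values at this region, on a scale that the authors did not adjust between libraries. This order is named after its values were seen, was not counted over the other regions and was not tested. The region in Armc3 near Msrb2, which encodes a methionine sulfoxide reductase, was high in DIE_Cocaine libraries 1 and 2 (5.58 and 5.16) but not in library 3 (3.22), and reached 3.81, 3.64 and 3.25 in proestrus. Among male libraries only MALE_Control library 3 called it, at 3.18. The diestrus and proestrus ranges overlapped there.

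The region nearest to Dppa4, a gene of pluripotent cells, lay 747 kb from its start. It had 3.44, 3.65 and 4.36 in diestrus and 3.71, 3.85 and 3.77 in proestrus, and no male library called it. The region 279 kb downstream of the start of Ttll7, which encodes a tubulin polyglutamylase of neurons, had 4.87, 4.03 and 3.91 in diestrus and 3.91, 3.42 and 3.87 in proestrus. MALE_Cocaine library 1 called it at 2.51 and MALE_Control library 2 at 2.62, so this region did not separate the male groups. In the intron of Ly86, an immune gene whose product pairs with a Toll-like receptor homologue, values were 3.92, 5.03 and 3.22 in diestrus and 4.21, 3.42 and 4.40 in proestrus. All 3 male controls called the Ly86 region, at 2.42, 3.03 and 2.96, and neither male cocaine library did.

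The other 5 of the 12 had the start sites of Pcmtd1, Prrx1, Gm21905, Cntnap5a and Gm5447 nearest. Prrx1, a homeobox gene of mesenchyme, held its region in an intron (chromosome 1, 163280205 to 163280826), with 3.53 to 4.40 in the female cocaine libraries and 2.80, 3.72 and 3.18 in the male controls. MALE_Cocaine library 1 called this region at 2.40. The region nearest to Cntnap5a, a neurexin-like adhesion gene, was 1647 kb from its start, and the lowest and highest of its 6 female cocaine values were 3.27 and 3.68. It was also called in MALE_Cocaine library 1 (2.95) and MALE_Control library 2 (3.58). The region nearest to Gm5447 lay 108 kb from its start. Its value in male control 2 (5.10) was above those of all 6 female cocaine libraries (3.22 to 4.40). That of male control 3 (4.39) was near the highest of them.

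**Figure D2:**
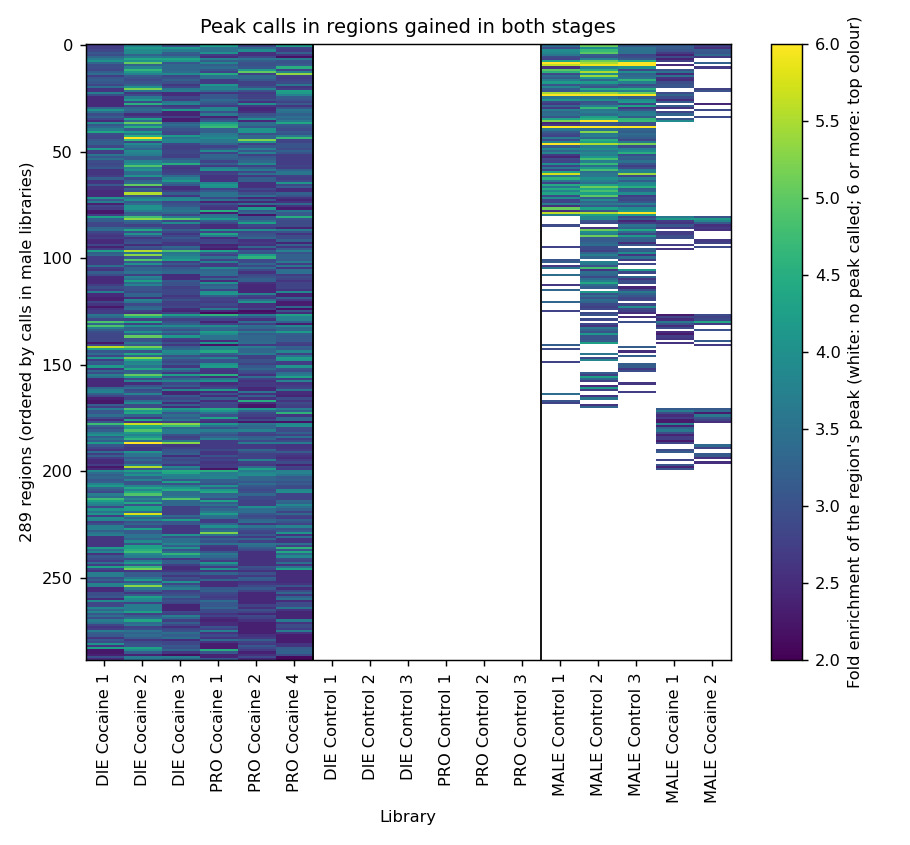
Peak calls in the 289 regions (rows, ordered by the number of male control and then male cocaine libraries that called them) in 17 libraries (columns). Colour gives the fold enrichment of the strongest peak of the library in the region and white means no peak. The 6 female cocaine columns are full and the 6 female control columns empty by the rule, while the male columns, which the rule did not use, hold 45 to 150 calls each.

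The rule did not use the calls of male libraries, but male peaks took part in the merging and in the choice of summits. The male cocaine libraries called a smaller share of the gained regions than the male controls did. Male controls 1, 2 and 3 called 33.9, 51.9 and 45.3% of the 289 regions, against 40.7, 36.9 and 40.7% of all regions. MALE_Cocaine libraries 1 and 2 called 26.6 and 15.6% of them, against 24.7 and 21.5% of all regions. The share of the gained regions relative to all regions was 0.833 to 1.41 in male controls and 0.723 to 1.08 in male cocaine libraries, so the ranges overlapped. With 2 libraries against 3, an exact test cannot give a p below 0.1, and none was run.

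By region, 81 of the 289 (28.0%) were called in 3 of 3 male control libraries, close to the 28.1% of all regions. A further 89 (30.8%) were called in no male library, against 40.2% of all regions. The female pattern itself, 2 of 2 male cocaine and 0 of 3 male control libraries, was found in 7 (2.42%), against 0.879% of all regions. This count was 13 without MALE_Cocaine library 1, 23 without library 2 and 15 with the same number of peaks from every library. The reverse, 0 of 2 male cocaine and 3 of 3 male controls, was found in 44 (15.2%), against 8.76% of all regions. For comparison, the reverse of the rule in females (0 of 6 cocaine and 6 of 6 control libraries) held in 50 regions, or 0.018% of all. The rule applied within diestrus, whatever the proestrus calls, held in 1629 regions (0.587% of all), and within proestrus in 3518 (1.27%), and both counts include the 289.

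The 7 regions with the female pattern in males lay near Ftmt, Dnajc5b, Rspo2, Amy2a5, Pabpc4l, Pom121l12 and Pabpc2. Rspo2 encodes an R-spondin that amplifies Wnt signalling, and its intronic region (chromosome 15, 43026975 to 43027439) was the only one of the 7 with an AP-1 motif, 40 bp from the summit. Its values were 3.09, 4.40 and 3.10 in diestrus and 3.51, 2.89 and 4.61 in proestrus, while MALE_Cocaine libraries 1 and 2 had 2.95 and 2.32. The region 13.9 kb upstream of Dnajc5b, which encodes a cysteine string protein, had 3.09, 4.15 and 3.79 in diestrus and 4.11, 3.31 and 3.25 in proestrus. Its male cocaine values of 3.72 and 3.37 lay within that range, unlike those of Rspo2, where the second was below all 6. The other regions of the 7 lay 570 kb from Amy2a5, a pancreatic amylase gene, 770 kb from Pabpc4l and 31.3 kb from Pabpc2, which encode poly(A)-binding proteins, and 280 kb from Pom121l12. Their summit windows were AT-rich, with a GC content of 21.4% near Amy2a5 and 24.4% near Pabpc4l.

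In 18 regions all 3 male controls were above all 6 female cocaine libraries in fold enrichment, a group named here after its values were seen. These were 22.2% of the 81 gained regions called in the 9 libraries, and the same order held in 15.6% of all regions called in them. Over all autosomal peaks the median fold enrichment was 3.40 to 3.72 in the male control and 3.04 to 3.65 in the female cocaine libraries. The region between genes 111 kb upstream of Calb1 (chromosome 4, 15768712 to 15770567), which encodes the calcium buffer calbindin, had 6.76, 7.99 and 7.03 in male controls. In females it had 2.97, 2.89 and 2.53 in DIE_Cocaine and 3.10, 2.78 and 3.77 in PRO_Cocaine libraries. MALE_Cocaine library 1 called it at 3.28 and library 2 did not. The region 183 kb upstream of Agr3 (chromosome 12, 35742651 to 35743194) reached 5.99, 7.57 and 6.37 in male controls. It had 3.32, 4.53 and 3.22 in diestrus and 4.71, 3.10 and 3.04 in proestrus, and no male cocaine library called it. In the intron of Stk3, a kinase of the Hippo pathway (chromosome 15, 35157262 to 35157863), male controls had 5.61, 5.92 and 6.37 and the female cocaine libraries 2.97 to 3.33. MALE_Cocaine library 1 called the Stk3 region at 2.51.

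**Figure D3:**
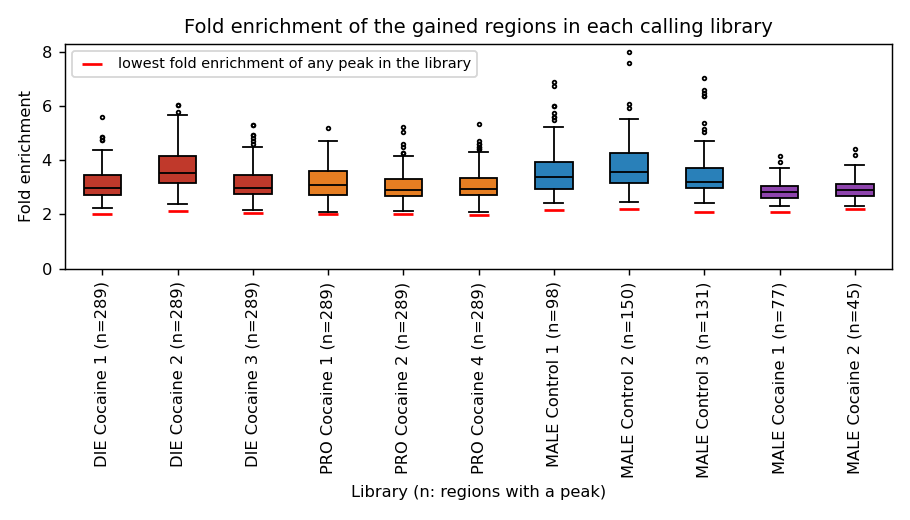
Fold enrichment (y axis, ratio) of the gained regions in each library that called any of them, with the number of regions called (n) at each library. Boxes span the quartiles with the median as a line, whiskers reach to 1.5 times the box height and circles lie beyond; red dashes mark the lowest fold enrichment of any peak in the library. The medians of all 11 libraries lie between 2.84 and 3.58, and the highest single values, up to 7.99, are in male controls.

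The gained regions lay largely away from promoters. Their summits were intergenic in 144 cases (49.8%, 95% Wilson interval 44.1 to 55.6%), against 26.4% of all regions. Part of this was shared by the regions gained in diestrus only (38.3%) and in proestrus only (36.4%). Introns of protein-coding genes held 108 (37.4%, 32.0 to 43.1%), against 56.8% of all regions. In the regions gained in diestrus only and in proestrus only they held 47.5 and 51.0%. Introns of other genes held 19 of the gained regions (6.57%). Promoters held 9 (3.11%, 1.65 to 5.81%), against 6.21% of all regions and 25.3% of the regions called in all 12 female libraries. The shares were also low in the regions gained in diestrus only (3.58%) and in proestrus only (2.17%). The median distance from the summit to the nearest protein-coding start site was 59.9 kb, against 28.9 kb over all regions, 52.6 and 59.0 kb for those gained in diestrus only and in proestrus only, 19.4 kb where all 12 female libraries were called and 13.5 kb for the 50 regions of the reverse pattern. In 120 regions (41.5%, against 24% of all) this distance was above 100 kb. The intervals cover counting error only, and no test was made, since the sets were chosen by calls in the same libraries.

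**Figure D4:**
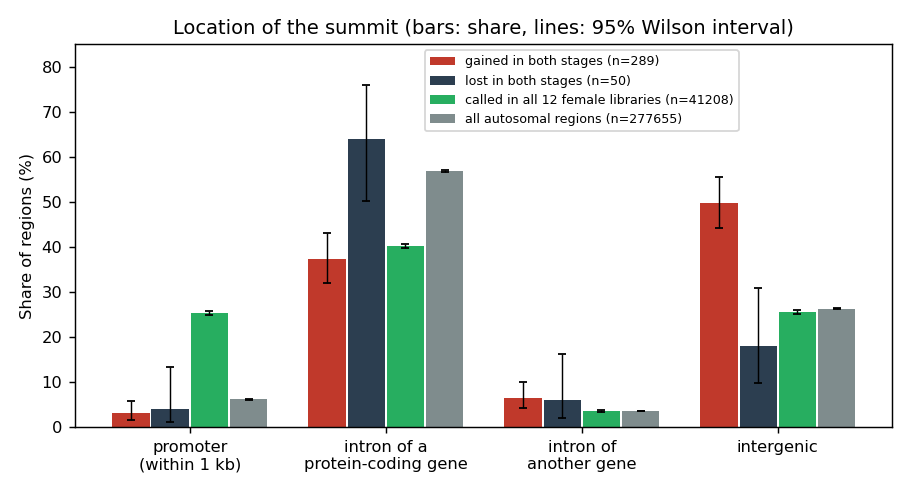
Share of regions (y axis, percent) whose summit lay in a promoter, an intron of a protein-coding gene, an intron of another gene or between genes, for 4 sets of regions. Bars are shares and lines 95% Wilson intervals; coding, UTR and other exons, with few regions, are left out. Of these 4 sets the gained regions stand highest for intergenic summits (49.8%) and lowest for promoters (3.11%).

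The 9 promoter regions belonged to 8 genes. Pdzd2, which encodes a protein with PDZ domains, had a gained region at 2 of its start sites on chromosome 15, 12493188 to 12494581 and 12548727 to 12549780. The first had 2.61, 3.14 and 3.45 in diestrus and 2.60, 2.67 and 2.30 in proestrus, the second 2.97, 3.14 and 2.99 and then 2.80, 2.46 and 2.62. No male library called either region. At the promoter of Jam2, a junctional adhesion molecule (chromosome 16, 84773452 to 84774644), values were 2.73, 3.02 and 3.10 in diestrus and 2.70, 3.42 and 3.04 in proestrus, and no male library called it. The promoter of Bpifc, of a lipid-binding protein family, held an AP-1 motif 34 bp from the summit and had 2.97, 3.27 and 3.10 in diestrus and 3.30, 2.67 and 2.83 in proestrus.

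Gar1, a component of H/ACA small nucleolar ribonucleoproteins, had 2.40 to 3.68 in the female cocaine libraries and 2.80, 3.31 and 3.07 in male controls. At the promoter of the growth factor gene Fgf10 the female cocaine libraries had 2.35 to 4.03 and the male controls 2.55, 3.17 and 3.07, and neither male cocaine library called it. Pou4f1, a POU-domain transcription factor gene of sensory and habenular neurons, had a region of 79.1% GC with 2.10 to 2.76, among the weakest of the 289. The remaining promoter regions were at B230118H07Rik (2.51 to 3.14) and at Gm7489 within Samd12 (2.76 to 3.52). In 4 of the 9 promoter regions, at Gar1, Fgf10 and both at Pdzd2, no base was shared by the peaks of all 6 female cocaine libraries, so the call of the region joined neighbouring peaks.

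The genes with the nearest start sites were varied. The 289 regions had 272 different nearest protein-coding genes, 17 of which were nearest to 2 regions and none to more. Ctnna2, Immp2l, Nbn, Pde4d, Pdzd2 and Rspo2 each contained 2 gained regions. In 4 cases neighbouring regions were within 10 kb of each other.

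Of genes induced by neuronal activity, 3 of 49 had a gained region inside or nearest, which made 1.04% of the gained regions against 0.401% of all regions by the nearest start site. Jun, which encodes an AP-1 subunit, had one 14.5 kb beyond its start (chromosome 4, 95037571 to 95038026), with 4.27, 4.28 and 2.99 in diestrus and 2.30, 2.89 and 3.14 in proestrus. No male library called it. The region nearest to Rgs2, a regulator of G protein signalling, lay 88.9 kb from its start and had 2.57 to 3.77 in females. It was also called in both male cocaine libraries and in MALE_Control library 2. The region nearest to Inhba, which encodes the activin A subunit, lay 475 kb from its start and had 2.5 to 4.02 and no male call.

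Of the dopamine and striatal signalling genes, 2 of 48 had gained regions (1.04% of the gained regions against 1.08% of all). Both encode phosphodiesterases that break down cyclic AMP. Pde4d held 2 in introns on chromosome 13, at 109529046 to 109529472 (4.15, 3.77 and 3.68 in diestrus, 4.01, 3.10 and 2.93 in proestrus, no male call) and at 109212762 to 109213352 (2.26, 3.27 and 2.87, then 2.70, 2.57 and 3.35, with MALE_Control libraries 2 and 3 called). Pde4b held 1, with 2.97, 3.52 and 2.99 in diestrus and 2.70, 3.21 and 2.51 in proestrus and no male call. None of the regions at Pde4d or Pde4b had an AP-1 motif near the summit.

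Of the glutamate and GABA receptor genes, 2 of 42 had a gained region (0.692% against 1.29% of all regions), in introns of Grid1, a delta receptor that organizes synapses (2.41 to 3.65), and of the NMDA receptor subunit gene Grin3a (2.25 to 2.89). Of the ion channel genes, 3 of 58 had one (1.04% against 1.77%). Kcnc2, a fast potassium channel gene, had an intronic region with values of 2.26 to 4.51 and a motif 81 bp from the summit. Another lay in Kcnip4, whose product binds potassium channels, with 2.30 to 2.97.

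Synaptic adhesion and axon guidance genes had the most, 14 regions inside or nearest to 13 of the 93 genes, 92 of which were in the annotation. Their share of the gained regions (4.84%) was however close to that of all regions (4.55%). Adgrl2, a latrophilin gene, was nearest to 2 regions, 709 and 880 kb from its start, with 2.97 to 4.21 at the nearer and 2.85 to 4.28 at the farther. The region nearest to Slitrk6, a synapse-organizing gene, lay 770 kb from its start and had 3.04 to 5.28. Both male cocaine libraries and 2 male controls called it. The region nearest to the guidance gene Slit2, 461 kb from its start, had 2.73 to 4.15 and calls in all 5 male libraries. The region nearest to Lrfn5, a synaptic adhesion gene, lay 979 kb from its start and had 2.70 to 4.25 and no male call. That nearest to Cntn3, a contactin gene, lay 43.8 kb from its start. Its values were 2.72 to 4.65, with a call in MALE_Cocaine library 1. The protocadherin gene Pcdh15 held its region in an intron, with 2.60 to 3.32 and a call in MALE_Control library 3. Of the transcription factor and chromatin genes, 3 of 45 had one (1.04% against 0.853%). Hdac9, a histone deacetylase gene, held its region in an intron, with 2.72 to 3.92 and no male call. The region nearest to Mef2c lay 108 kb from its start and had 2.49 to 3.51, with MALE_Control library 2 called. That nearest to Pou3f2 lay 10.1 kb from its start and had 2.83 to 4.06, with all 3 male controls called.

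The AP-1 motif stood near the summit in 80 of the 289 regions (27.7%, 95% Wilson interval 22.8 to 33.1%). The share was 4% (1.10 to 13.5%) in the 50 regions of the reverse pattern, 20.4% (18.3 to 22.6%) in the 1340 regions gained in diestrus only, 16.3% (15.1 to 17.6%) in the 3229 gained in proestrus only and 12% where all 12 female libraries were called. Over all regions 7.75% held the motif in a window of the same length, within 100 bp on each side of the summit. In this window the interval of the gained regions lay above the intervals of these sets, with the upper limit of the diestrus-only regions just below it. That separation depended on the choice of summit. Around the median summit of the calling libraries, the intervals of the gained (21.2 to 31.3%) and diestrus-only regions (19.2 to 23.6%) overlapped. The interval of the proestrus-only regions (16.3 to 18.9%) still lay below that of the gained regions. Of the 80, 14 held the motif at 2 or more positions. The nearest motif was a median of 36 bp from the summit, and 47 of the 80 had it within 50 bp.

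**Figure D5:**
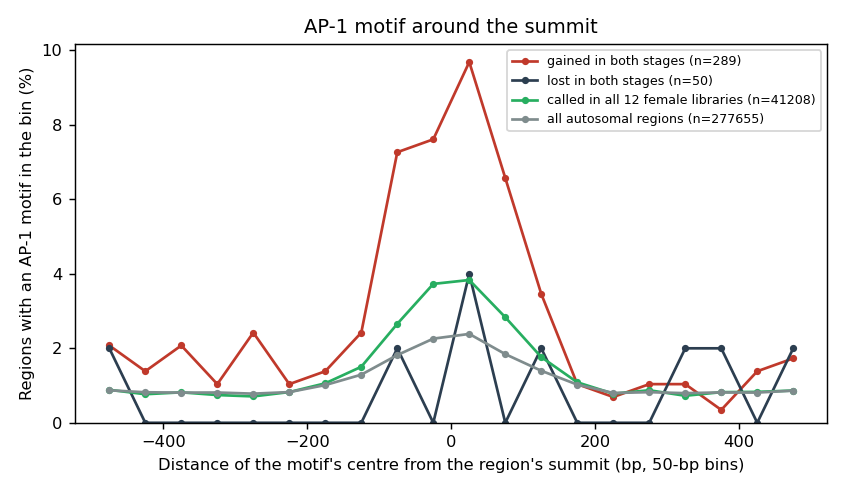
Share of regions (y axis, percent) with an AP-1 motif centred in each 50 bp bin of distance from the summit (x axis, bp). In the gained regions the share peaked at 9.69% in the bin just to the right of the summit and was 7.61% just to the left, and it fell to 1.04 to 2.42% between 200 and 300 bp to the left; all regions together reached 2.39% at most.

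Other motifs were searched on both strands. The E-box CAGATG was found in 16.6% (all regions 16.2%) and the E-box CAGCTG in 10.0% (10.7%). The octamer ATGCAAAT was found in 10 regions (3.46%, 1.89 to 6.25%), against 1.81% of all regions and 2.16 and 2.57% of the regions gained in diestrus only and in proestrus only, and the CTCF motif in 7 (2.42%, against 1.35%). The cyclic AMP response element TGACGTCA was found in 1, the Nr4a element AAAGGTCA in 3, the MEF2 motif in 3 and the SRF motif in 4. The Egr motif (GCGTGGGCG or GCGGGGGCG) was found in 0 of 289, against 0.379% of all regions; by a limit of 3 counts in place of the Wilson interval this allows a share of up to 1.04%. A match to these letters is not evidence of binding.

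The AP-1 share was also computed by male calls. It was 37.1% (27.8 to 47.5%) in the 89 regions that no male library called, 27.2% (18.7 to 37.7%) in the 81 called in all 3 male controls, 20% (13 to 29.4%) in the 90 called in 1 or 2 male controls and 24.1% (12.2 to 42.1%) in the 29 called in male cocaine libraries only. These intervals overlapped. The strength of the female peaks hardly varied with the motif: the median of the lowest fold enrichment was 2.61 with a motif and 2.57 without.

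The gained regions were AT-rich. The median GC content within 100 bp of the summit was 39.3% (quartiles 35.8 and 43.3%), against 43.8% in all regions, 46.5% in the reverse pattern and 49.3% where all 12 female libraries were called. It was 41.8% in regions gained in diestrus only and 40.3% in those gained in proestrus only. In the 1 Mb around them the medians were 40.2 and 43.3% for gained and all regions. At the level of libraries, the median GC content of called regions was 45.3 ± 1.32% in PRO_Cocaine and 47.3 ± 0.498% in PRO_Control libraries (SD, n = 3 each). In diestrus it was 46.1 ± 0.287% with cocaine and 46.6 ± 0.574% without (n = 3 each), and in males 46.0 ± 0.352% (n = 2) and 46.1 ± 0.760% (n = 3), differences within the spread. Its part in the calls was not tested. More than 50% repeat-masked sequence was found in 9 gained regions (3.11%, against 8.33% of all). The share was also low in regions gained in diestrus only (3.21%) and in proestrus only (4.03%).

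The regions spanned 314 to 2324 bp (median 577, against 429 for all regions and 1650 where all 12 female libraries were called). This width was shared by the regions gained in diestrus only (median 574 bp) and in proestrus only (606 bp). A region joins the overlapping peaks of all libraries that called it, so its width is not that of a peak. In the 6 female cocaine libraries the strongest peaks in the gained regions had median widths of 310 to 374 bp. All autosomal peaks of these libraries had medians of 417 to 433 bp, so the peaks in the gained regions were narrower. The peaks of all 6 female cocaine libraries shared at least 1 bp in 258 of the 289, with a median shared stretch of 166 bp over the 289. In 31 they shared none. The summits of the 6 libraries spread over a median of 189 bp within a region.

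The regions were unevenly placed over chromosomes. Chromosome 3 held 36, or 20.8 per 10000 regions of that chromosome, and chromosomes 10 and 15 held 16.5 and 16.4 per 10000. Chromosome 7 held 0 of its 12516 regions, which allows up to 2.40 per 10000, and chromosomes 17 and 9 held 2.21 and 2.84.

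The count of 289 depended on single libraries. Just outside the rule, 543 regions had 6 cocaine calls and 1 control call, and 193 of these were called in DIE_Control library 3. Another 697 had 5 cocaine calls and no control call, with DIE_Cocaine library 1 missing in 245 and PRO_Cocaine library 2 in 189. Leaving out DIE_Cocaine library 1, PRO_Cocaine library 2 or DIE_Control library 3 gave 534, 478 and 482 regions, and leaving out DIE_Cocaine library 2, whose stage label was blank, gave 337. The median of the lowest fold enrichment was 2.61 in the 543 regions and 2.53 in the 697, beside 2.60 inside the rule, and the single control call of the 543 had a median of 2.75. The values just inside and just outside the rule were thus alike. The weakest member (chromosome 16, 63220460 to 63220857) had 2.09 in PRO_Cocaine library 4.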

How the data were processed

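The peak files of 17 libraries were used. The authors mapped reads to mm10 (BWA) and ran MACS2 per library, with a version and options not given in the sources used here. For every peak they deposited a score, the fold enrichment of its summit (a ratio to background) and the −log10 of p and q, none of them normalized between libraries. The authors also removed blacklisted peaks and tested read counts later (featureCounts, DESeq2); neither step entered here.

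Overlapping peaks (at least 1 bp) of all libraries were merged, and a library called a region if any of its peaks lay in it. The value of a library is the fold enrichment of its strongest peak there, and the summit of a region is that of its strongest peak in any library, male libraries included. Summit pileup and background were computed from the even steps of the fold enrichments, taking the ratio as pileup plus 1 over background plus 1. No read totals were used, so depth is known only through this background. Sequence came from RefSeq GRCm38.p6, annotation from GENCODE vM21. Coordinates are of mm10 (GRCm38), counted from 1. Promoters lay within 1 kb of a protein-coding start site. The nearest gene is a position and not a target.

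No test was made: regions were chosen by their calls and compared by counts and shares with 95% Wilson intervals, which cover counting error only. The regions and gene lists were chosen with earlier results of these data known. Named were the 12 regions with the highest minimum fold enrichment over the 6 female cocaine libraries, those at promoters, those with the same pattern in males, and up to 8 a gene list. One region that this rule names is not reported here. The code was tested on simulated data. Alternatives covered the joining of peaks, peak strength and number, windows and single libraries. Calculations used Python 3.11.15, pandas 2.3.3, SciPy 1.17.1 and pysam 0.24.0.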

Additional observations from a re-analysis of the deposited data

Results flagged for a closer look

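In 44 of the 289 regions the male calls were the reverse of the female calls, with a peak in 3 of 3 male control and 0 of 2 male cocaine libraries. The MALE_Cocaine libraries had 86626 and 74532 autosomal peaks and the male controls 132654 to 148195. A missing call there is thus not a measured loss. The 44 were not recounted with the same number of peaks from every library, and the difference between the male groups was not tested. Of all autosomal regions, 8.76% had these male calls.

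Chromosome X lies outside the main count. There 9 of 3534 regions (0.255%) were called in 6 of 6 female cocaine and 0 of 6 female control libraries, and 0 had the reverse pattern. Of the 9, 4 held an AP-1 motif near the summit, 4 were called in a male control library and 3 in a male cocaine library, beside 11.3, 62.4 and 28.2% of all regions of chromosome X.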

How the results depend on the processing

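The number of regions stayed between 197 and 377 when touching peaks were joined, peaks were trimmed to their summits and 100 bp on each side, only peaks with −log10 q of at least 5 or the same number of peaks from every library were used, 50% of the region had to be covered, chromosome X was added or, an alternative chosen after seeing the data, the 6 female cocaine peaks had to share a base. Leaving out 1 female library gave 333 to 534 regions, and fewer libraries in the rule can only keep or raise the count. The AP-1 share ranged from 22.8 to 30.5% when 1 female library was left out, and was 33% with −log10 q of at least 5 and 26% around the median summit. It was 34.9% with the same number of peaks (74532) from every library and also 34.9% within 250 bp of the summit, a window in which 13.4% of all regions held the motif. Around the median summit, the interval of the AP-1 share overlapped that of the regions gained in diestrus only. The count of regions with the same pattern in males was 7 of 289, and 15 of 232 with the same number of peaks from every library. Leaving out 1 male library gave 7 to 23 of 289 (13 without MALE_Cocaine library 1 and 23 without library 2), and can only keep or raise this count. The shares of all regions under these settings were not computed. The promoter share was 6.23% within 3 kb and also 6.23% with the start sites of all transcripts. No paired analysis was possible because no result came from a test. A region without a peak was not called at the depth of that library, and 3 pooled libraries a group limit the precision of every call pattern.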
